A study of Mus musculus with 12 samples.

Results

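The genes described here are the axon guidance ligands and receptors of the mouse transcriptome: the ephrins and Eph receptors, the semaphorins with their plexin and neuropilin receptors, the Slits with the Robo receptors, and the netrins with Dcc and the Unc5 receptors. Genes were taken by a pattern on their symbols, with earlier results of these data known. Of 21253 genes with an expression value, 68 carried such a symbol: 14 Eph receptors, 8 ephrins, 20 semaphorins, 9 plexins, 2 neuropilins, 7 Slit and Robo genes, and 8 netrin, Dcc and Unc5 genes. A gene was tested where at least 2 of the 12 libraries reached 1 FPKM (fragments per kilobase of transcript, scaled to the mapped fragments of the library), which held for 60 of the 68 and for 13678 genes in all.

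Guidance molecules steer growing axons and migrating cells. Netrins attract through Dcc and repel through Unc5 receptors, and Slits are secreted proteins that repel through Robo receptors. Semaphorins signal through plexins, and most secreted class 3 semaphorins need a neuropilin as coreceptor. Ephrins are held at the cell surface by a lipid anchor (class A) or a transmembrane segment (class B), so they signal between touching cells through Eph receptor tyrosine kinases. In the early neural tube, regional expression of these genes marks boundaries, the floor plate and the first axon tracts, and the same genes also act in blood vessels, endoderm and neural crest.

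RNA-seq was carried out on mouse embryonic stem cells (mESC) and on AntNPC, anterior neural progenitor cells derived from them. Wild type (WT) cells were of the E14 line, and the compared line was labelled EED-/-. Eed belongs to the core of Polycomb repressive complex 2, the enzyme that methylates histone H3 at lysine 27. The mESC were kept on gelatin with serum and LIF and had no treatment. The AntNPC of both genotypes were grown for 3 days without serum or LIF in N2B27 medium with 10 ng/ml bFGF, then without bFGF to day 5, and the WNT inhibitor Xav939 was present at 5 uM from day 2. There were 2 WT mESC, 2 EED-/- mESC, 4 WT AntNPC and 4 EED-/- AntNPC libraries, from a single cell line per genotype. Line and genotype therefore cannot be told apart, and nothing in the labels says that the libraries came from separate cultures, so the p-values measure the spread between these libraries, which may be technical.

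Some features of the libraries bear on all results. Depth per library is unknown, since FPKM values carry no totals. Summed over all genes, FPKM came to 453550 and 864235 in WT mESC and to 788753 and 475689 in EED-/- mESC. In AntNPC the sums were 455577 to 542958. The part of these unlike sums in the mESC differences was not tested. Eed itself had 66.2 and 163 FPKM in the WT mESC libraries against 644 and 376 FPKM in EED-/- mESC, and at 42 to 63.4 FPKM in WT AntNPC against 171 to 202 FPKM in EED-/- AntNPC. Its level thus went against the label of the EED-/- libraries, and every direction given below rests on that label. Chromosomes 3, 6 and 8 were compared with the other autosomes over genes with a mean above 5 FPKM. Their genes were higher in EED-/- libraries, by a median of 0.57, 0.63 and 0.46 on the log2 scale in AntNPC and of 0.45, 0.61 and 0.49 in mESC. Chromosomes 3, 6 and 8 hold 13 of the 60 tested guidance genes, some of them with a mean below that cut. Replicate 1 of each AntNPC group stood apart from replicates 2 to 4: correlations of log2 values with it were 0.979 to 0.981, against at most 0.998 among the other replicates. The 2 mESC libraries of a genotype were less alike, with a correlation of 0.933 for WT and 0.953 for EED-/-.

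CG-rich promoters are the sequence class on which Polycomb repressive complex 2 is known to act, and the start regions of guidance genes are shown for that reason. RefSeq start sites on GRCm38.p6, the build of the expression table, were matched to 58 of the 68 genes. The 250 bases before the start are shown for 3 genes that fell and 3 that rose in AntNPC, on the gene's own strand from 5′ to 3′, with each CG dinucleotide in capitals. Shown are the largest changes among genes whose RefSeq start lay within 1000 bases of the 5′ end of the GENCODE M21 gene, which 5 of the 58 did not. Ephb1 fell, and its window lies at chr9:102354694-102354943 on the minus strand. Plxnc1 fell, with its window at chr10:94944846-94945095 on the minus strand. Sema6d fell, with its window at chr2:124089719-124089968 on the plus strand. Unc5b rose, with its window at chr10:60831582-60831831 on the minus strand. Epha1 rose, with its window at chr6:42373269-42373518 on the minus strand. Sema3e rose, with its window at chr5:14025026-14025275 on the plus strand.
Ephb1: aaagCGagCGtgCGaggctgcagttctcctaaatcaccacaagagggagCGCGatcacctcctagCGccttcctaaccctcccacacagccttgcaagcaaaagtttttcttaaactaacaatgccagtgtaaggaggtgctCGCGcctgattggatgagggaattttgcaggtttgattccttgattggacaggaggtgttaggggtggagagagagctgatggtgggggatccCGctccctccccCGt
Plxnc1: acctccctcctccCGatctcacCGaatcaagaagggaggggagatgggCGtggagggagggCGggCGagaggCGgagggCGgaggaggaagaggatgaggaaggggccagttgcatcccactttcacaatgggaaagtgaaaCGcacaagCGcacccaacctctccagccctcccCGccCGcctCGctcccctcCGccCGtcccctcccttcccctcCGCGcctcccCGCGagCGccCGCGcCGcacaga
Sema6d: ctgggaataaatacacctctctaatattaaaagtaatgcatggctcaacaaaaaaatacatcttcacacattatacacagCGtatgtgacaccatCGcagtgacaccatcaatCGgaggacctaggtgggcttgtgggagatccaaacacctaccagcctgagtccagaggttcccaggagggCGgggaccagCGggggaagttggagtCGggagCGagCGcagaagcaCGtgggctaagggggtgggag
Unc5b: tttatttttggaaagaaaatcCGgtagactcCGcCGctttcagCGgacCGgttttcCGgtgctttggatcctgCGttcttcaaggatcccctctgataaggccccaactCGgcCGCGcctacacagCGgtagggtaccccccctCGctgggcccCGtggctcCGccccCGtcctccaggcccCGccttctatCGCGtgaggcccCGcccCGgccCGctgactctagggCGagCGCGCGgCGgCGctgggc
Epha1: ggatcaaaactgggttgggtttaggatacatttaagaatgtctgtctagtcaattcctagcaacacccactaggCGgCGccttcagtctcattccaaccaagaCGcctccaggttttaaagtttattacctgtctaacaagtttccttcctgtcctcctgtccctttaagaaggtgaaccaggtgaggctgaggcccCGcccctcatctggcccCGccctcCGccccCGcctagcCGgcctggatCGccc
Sema3e: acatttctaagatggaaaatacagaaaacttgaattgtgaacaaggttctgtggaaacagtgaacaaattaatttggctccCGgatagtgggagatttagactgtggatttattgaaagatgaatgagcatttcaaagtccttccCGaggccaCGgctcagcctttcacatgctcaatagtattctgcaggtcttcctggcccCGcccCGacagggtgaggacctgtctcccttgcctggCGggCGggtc
The CG pair, which reads the same on both strands, occurred 10 times in the Ephb1 window, 22 times in Plxnc1, 9 times in Sema6d, 27 times in Unc5b, 9 times in Epha1 and 7 times in Sema3e. Over the 58 genes the median was 16, with a range of 2 to 46, against a median of 6 over the 27025 genes of the promoter table. Every one of the 58 windows held at least 1 CG, as did 91.7% of all windows. The median was 22 for 7 of the 12 genes that fell in AntNPC, 13.5 for 14 of the 16 that rose and 19 for 31 of the 32 that did neither. The ranges of the groups overlapped widely, and a CG count is a description of the letters, not of Polycomb occupancy, which was not analysed here.

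**Figure D1:**
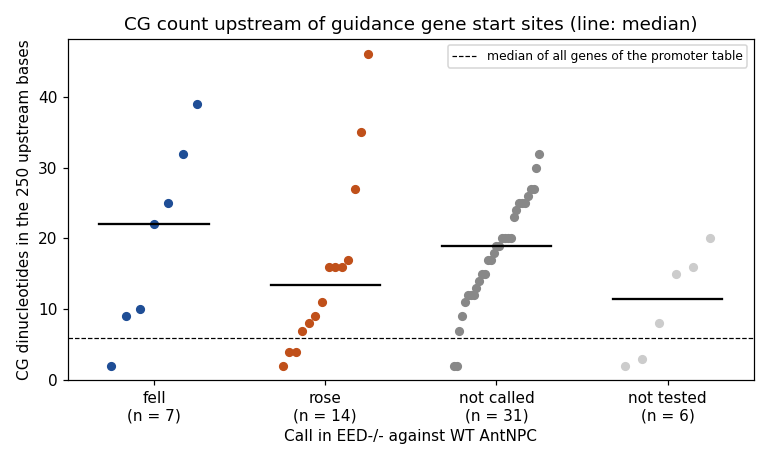
CG dinucleotides in the 250 bases before the start site (vertical axis, count) of the guidance genes that fell, rose, were not called or were not tested in EED-/- against WT AntNPC. Points are genes, solid lines are medians (22, 13.5, 19 and 11.5) and the dashed line is the median of 6 over all genes of the promoter table.

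In AntNPC, guidance genes of all 4 ligand and receptor systems differed between the genotypes, in both directions. Of the 60 tested genes, 16 rose and 12 fell in EED-/- against WT AntNPC, and 32 passed the test in neither direction. Among all 13678 genes 26.1% were called, 18.3% as higher and 7.75% as lower. Here 26.7% of the guidance genes rose and 20% fell. The genes that fell were led by Sema3a, Ephb1, Ntn1, Plxnc1 and Dcc, and those that rose by Unc5b, Epha1, Sema3e, Efna1 and Slit3. The median log2 fold change of the 60 genes was -0.06, and that of all tested genes was 0.05. The test was limma on log2(FPKM + 1), with adjusted p under 0.05 over all genes, so fold changes on that scale understate those of low genes. Quantile normalization moved the median of all genes to -0.06 and the split among the guidance genes to 14 higher and 16 lower.

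**Figure D2:**
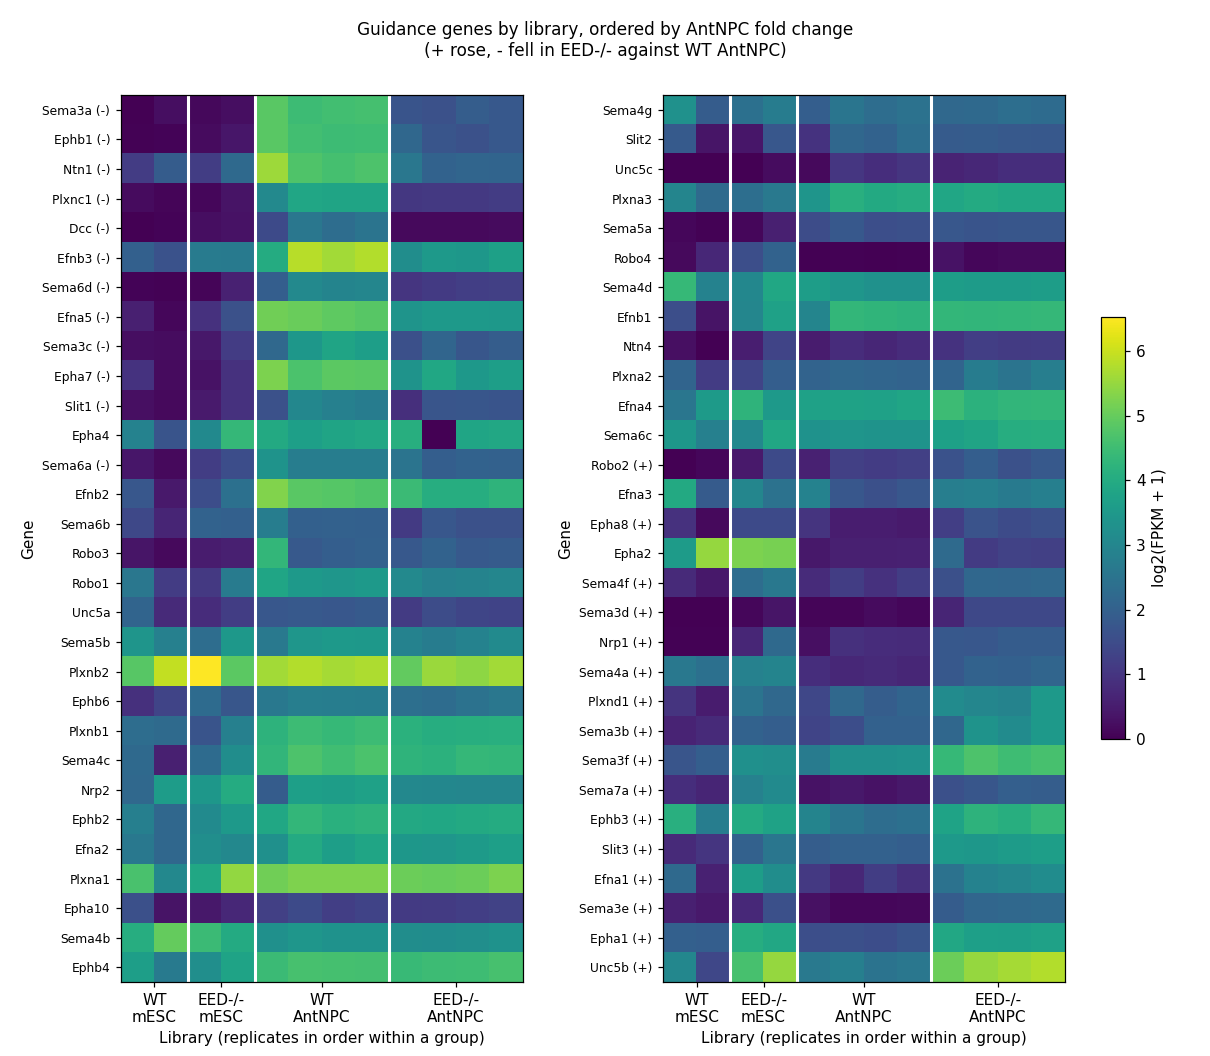
Heat map of the 60 tested guidance genes (rows) in the 12 libraries (columns, by group), colour giving log2(FPKM + 1). Genes are ordered by their fold change between EED-/- and WT AntNPC, with a plus for the 16 that rose and a minus for the 12 that fell; the lower genes are at the top of the left panel, bright in WT AntNPC and dark in EED-/- AntNPC.

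The netrin system changed at the ligand and at 2 receptors. Ntn1 encodes the floor plate attractant netrin-1, on chr11:68209364-68400823. Its FPKM in replicates 1 to 4, the order used throughout, were 46.8, 25.3, 23.4 and 25.1 in WT AntNPC and 5.02, 3.16, 3.38 and 3.28 in EED-/- AntNPC. Every WT library was above every EED-/- library, and replicate 1 was the highest of both groups. Means were 30.1 ± 11.1 FPKM and 3.71 ± 0.881 FPKM (SD, n = 4 each), 8.11-fold lower in EED-/-, with a log2 fold change of -2.68 ± 0.29 (SE) and an adjusted p of 5.64e-05. Dcc, the attractive netrin receptor, lies on chromosome 18. It was at 1.75, 4.98, 4.06 and 4.66 FPKM in WT AntNPC and at 0.116, 0.128, 0.131 and 0.134 FPKM in EED-/- AntNPC. No EED-/- library came near the WT range. The log2 fold change of Dcc was -2.05 ± 0.21 (adjusted p = 3.15e-05), and the ratio of its means was 30.4-fold.

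Unc5b, a repulsive netrin receptor that also acts in vessel sprouting, moved the opposite way. It lies on chr10:60762593-60831581. WT AntNPC had 5.22, 6.08, 4.61 and 5.04 FPKM and EED-/- AntNPC 32.1, 44.3, 49.3 and 53.3 FPKM. The groups were far apart, with the lowest EED-/- value in replicate 1. The mean was 8.53-fold higher in EED-/-, at 44.7 ± 9.16 against 5.24 ± 0.621 FPKM (SD, n = 4), with a log2 fold change of 2.86 ± 0.32 (adjusted p = 6.61e-05). Ntn4, a netrin of basement membranes, and the receptors Unc5a and Unc5c did not pass the test, with log2 fold changes of 0.41, -0.47 and 0.00.

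Semaphorins held the most calls of any family in AntNPC, with 7 of 19 higher and 4 lower. Sema3a encodes a secreted repellent that signals through Nrp1 and class A plexins and lies on chr5:13125414-13602565. It was at 28, 21.1, 22.4 and 23.4 FPKM in WT AntNPC and 2.23, 2.06, 2.82 and 2.48 FPKM in EED-/- AntNPC. Values within each group were close, and the groups did not overlap. Its mean was 9.88-fold lower in EED-/-, and its log2 fold change of -2.86 ± 0.14 had an adjusted p of 4.2e-07.

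The other semaphorins that fell were Sema3c, Sema6d and Sema6a. Sema3c, a class 3 ligand known from heart and cortical development, was at 3.62, 10, 13.1 and 11.7 FPKM in WT AntNPC and 2.01, 3.35, 2.35 and 2.77 FPKM in EED-/- AntNPC. Sema6d, a transmembrane semaphorin that binds Plxna1, was at 2.86, 7.4, 6.74 and 6.97 FPKM against 1.02, 1.14, 1.31 and 1.34 FPKM. In WT AntNPC, replicate 1 was the lowest library for both genes and still above all EED-/- libraries. Their log2 fold changes were -1.45 ± 0.32 (adjusted p = 0.00619) and -1.61 ± 0.23 (adjusted p = 0.000395). Sema6a, a transmembrane ligand of Plxna2 and Plxna4, was at 9.14, 5.86, 5.85 and 5.78 FPKM against 4.71, 2.88, 3.14 and 3.08 FPKM. Replicate 1 was the highest in both groups. Its fall of -0.78 ± 0.19 on the log2 scale had an adjusted p of 0.00938.

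Of the semaphorins that rose, 4 were secreted class 3 ligands. Sema3e, the ligand of Plxnd1 that acts without a neuropilin, was at 0.215, 0.0909, 0.0737 and 0.095 FPKM in WT AntNPC and at 2.7, 3.49, 3.64 and 3.78 FPKM in EED-/- AntNPC. The gene passed from near 0 in every WT library to over 2 FPKM in every EED-/- library, with a log2 fold change of 1.97 ± 0.17 (adjusted p = 1.01e-05). Sema3f, a repellent that acts through Nrp2, was at 5.56, 8.45, 8.45 and 8.84 FPKM in WT and 19.8, 24.9, 21.7 and 23.5 FPKM in EED-/- AntNPC. Its groups were separated by more than the range of either, and the log2 fold change was 1.42 ± 0.16 (adjusted p = 6.26e-05). Sema3b was at 1.52, 1.91, 3.11 and 3.06 FPKM against 3.51, 9.23, 7.93 and 10.5 FPKM. Replicate 1 of EED-/- AntNPC lay just above the highest WT library, and the log2 fold change was 1.32 ± 0.28 (adjusted p = 0.00481). Sema3d was at 0.0652, 0.0648, 0.132 and 0.0918 FPKM against 0.598, 1.67, 1.65 and 1.66 FPKM (single values of Sema3d and Robo2 were chosen for print after being seen), with a log2 fold change of 1.11 ± 0.16 (adjusted p = 0.000387).

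Sema7a, the only semaphorin anchored by a lipid, was at 0.245, 0.327, 0.25 and 0.348 FPKM in WT AntNPC and 2.01, 2.33, 2.93 and 2.82 FPKM in EED-/- AntNPC. All 4 EED-/- libraries exceeded all WT libraries, with a log2 fold change of 1.44 ± 0.13 (adjusted p = 1.09e-05). Sema4a, a transmembrane semaphorin also known from immune cells, was at 0.81, 0.652, 0.7 and 0.636 FPKM against 2.47, 3.17, 3.02 and 3.35 FPKM. Its groups did not overlap either, and the log2 fold change was 1.23 ± 0.12 (adjusted p = 2.9e-05). Sema4f was at 0.74, 1.26, 0.918 and 1.28 FPKM against 2, 3.52, 3.46 and 3.64 FPKM, a log2 fold change of 1.01 ± 0.18 (adjusted p = 0.00144). The remaining 8 tested semaphorins were not called. The most abundant of them on this per-length scale was Sema4c, at 22.6 ± 2.86 FPKM in WT and 18.4 ± 0.881 FPKM in EED-/- AntNPC (SD, n = 4).

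Among the semaphorin receptors, of 7 tested plexins 1 fell and 1 rose, and of 2 neuropilins 1 rose. Plxnc1, the receptor of Sema7a, lies on chr10:94790866-94944835. It was at 7.46, 13.6, 13.1 and 13.1 FPKM in WT AntNPC and 1.1, 1.11, 1.11 and 1.22 FPKM in EED-/- AntNPC. The ligand Sema7a was thus higher and its receptor 10.4-fold lower in the same EED-/- libraries, with a log2 fold change of -2.55 ± 0.18 for Plxnc1 (adjusted p = 2.48e-06). Plxnd1, the receptor of Sema3e, was at 1.64, 3.58, 2.78 and 3.27 FPKM against 7.84, 6.91, 6.63 and 10.4 FPKM. Here ligand and receptor were both higher in EED-/-, Plxnd1 by 1.24 ± 0.21 on the log2 scale (adjusted p = 0.00128). Nrp1, the coreceptor of Sema3a and of VEGF, was at 0.205, 0.884, 0.78 and 0.756 FPKM against 2.49, 2.4, 2.75 and 2.71 FPKM. The rise of 1.13 ± 0.27 (adjusted p = 0.00879) was not called after quantile normalization (adjusted p = 0.0523) or without both AntNPC replicates 1 (adjusted p = 0.0542).

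The most abundant semaphorin receptors were not called. Plxnb2, a receptor of class 4 semaphorins, was at 48.1, 53.4, 49.4 and 52 FPKM in WT AntNPC and 29.9, 45.6, 41.8 and 47.9 FPKM in EED-/- AntNPC. Plxna1, a class A receptor, was at 33.3, 37.6, 37.7 and 37.6 FPKM against 32.6, 31.4, 32.6 and 36.9 FPKM. Nrp2, the coreceptor of Sema3f, was at 2.73, 11.8, 11.5 and 12.4 FPKM against 7.27, 7.14, 6.93 and 7.04 FPKM. For Nrp2, WT replicate 1 lay below and the other WT libraries above the EED-/- range. Plxna3 and Plxnb1 had log2 fold changes of 0.03 and -0.27.

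Among ephrins in AntNPC, 2 of 8 fell and 1 rose. Efnb3, a class B ephrin of the nervous system midline, lies on chr11:69554092-69560205 and was at 15.1, 55.3, 48.6 and 53.6 FPKM in WT and 8.26, 10.3, 9.87 and 12 FPKM in EED-/- AntNPC. WT replicate 1 lay between the other WT libraries and the EED-/- group. The log2 fold change was -1.84 ± 0.35 (adjusted p = 0.00233). Efna5, a repellent of retinal axons, was at 33.8, 31.7, 28.8 and 27.7 FPKM against 9.44, 10.4, 10.4 and 10.1 FPKM. Both groups were narrow, and the log2 fold change was -1.5 ± 0.17 (adjusted p = 8.41e-05). Efna1, an ephrin also induced in vessels, rose from 1.12, 0.646, 1.27 and 0.878 FPKM to 4.5, 6.47, 6.95 and 8.08 FPKM. No library crossed between the groups, with a log2 fold change of 1.91 ± 0.31 (adjusted p = 0.000854). Efnb2, the arterial ephrin, was at 38.1, 28, 26.9 and 25.3 FPKM against 20.8, 15.9, 15.8 and 18 FPKM, without overlap but with an adjusted p of 0.0942.

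Eph receptors were called in 5 of 11 cases, 2 lower and 3 higher. Ephb1 had one of the largest falls. It encodes a receptor of class B ephrins that steers crossing at the optic chiasm and lies on chr9:101922128-102354693. WT AntNPC had 28, 22.3, 21.1 and 21.6 FPKM and EED-/- AntNPC 3.52, 2.3, 2.09 and 2.48 FPKM. Replicate 1 was highest in both genotypes, and its EED-/- value was still far below every WT library. The mean was 8.96-fold lower in EED-/-, with a log2 fold change of -2.76 ± 0.16 (adjusted p = 8.14e-07). Epha7, a receptor of class A ephrins in the forebrain, was at 37.1, 24.4, 28.3 and 28.2 FPKM against 9.14, 13.8, 10.1 and 11.6 FPKM. Its fall of -1.33 ± 0.22 (adjusted p = 0.0011) left it well above its level in mESC.

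Epha1, a receptor best known from epithelia, rose as well. It lies on chr6:42358487-42373268. Its FPKM were 1.98, 2.04, 1.91 and 2.24 in WT AntNPC and 14.1, 11.9, 11.6 and 12.4 in EED-/- AntNPC. The mean was 6.13-fold higher in EED-/-, with a log2 fold change of 2.15 ± 0.12 (adjusted p = 8.09e-07). Genes of chromosome 6 with a mean above 5 FPKM had a median shift of 0.63 from the other autosomes. The part of that shift in the rise of Epha1 was not tested. Ephb3 was at 6.69, 4.84, 4.02 and 4.29 FPKM against 12.8, 17.7, 16.1 and 19.3 FPKM. The EED-/- libraries were again all above the WT libraries, by 1.56 ± 0.27 on the log2 scale (adjusted p = 0.0013). Epha8 had a rise of 0.86 ± 0.18 (adjusted p = 0.00455), which was not called after quantile normalization (adjusted p = 0.181). Ephb4, the venous receptor of Efnb2, was at 20.9, 23.9, 23.2 and 22.9 FPKM against 20, 21.4, 21.8 and 23.5 FPKM and was not called. Epha4, chosen for mention after its values were seen, was listed at exactly 0 in EED-/- replicate 2 but at 16.1, 13.4 and 14.2 FPKM in replicates 1, 3 and 4, against 14.7, 11.9, 13 and 14.2 FPKM in WT. In the authors' deposited table its mean read count was 3608 in WT and 3733 in EED-/- AntNPC, a ratio of 1.03, so the listed 0 stands alone.

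In the Slit and Robo system 2 genes rose and 1 fell of 7. Slit3, on chr11:35121224-35708507, encodes a secreted ligand of the Robo receptors that is also made in mesoderm. It was at 2.78, 3.06, 3.1 and 2.85 FPKM in WT and 10.6, 10, 10.9 and 11.6 FPKM in EED-/- AntNPC. The spread within a group was small beside the gap between them, with a log2 fold change of 1.58 ± 0.15 (adjusted p = 1.72e-05). Slit1, the brain-enriched Slit, was at 2.07, 7.07, 6.15 and 5.7 FPKM against 0.842, 2.3, 2.36 and 2.24 FPKM. WT replicate 1 was below 3 of the EED-/- libraries, so the groups overlapped. Its fall of -1.04 ± 0.31 (adjusted p = 0.0269) was lost without WT AntNPC replicate 2, 3 or 4 or EED-/- AntNPC replicate 1, at adjusted p of 0.0737 to 0.084.

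Robo2, a receptor that keeps axons off the midline, rose by 0.71 ± 0.22 (adjusted p = 0.0359). It was at 0.502, 1.35, 1.24 and 1.35 FPKM in WT and 2.13, 2.87, 2.06 and 2.54 FPKM in EED-/- AntNPC. The call was lost without any single AntNPC library (adjusted p of 0.0532 to 0.0999), without both AntNPC replicates 1 (0.12), with a pseudocount of 0.1 (0.0864), after quantile normalization (0.347) and with the crossed replicate block (0.0728). Robo1, the most abundant Robo receptor here, was at 13.2, 10.4, 9.74 and 10.5 FPKM against 7.39, 6.35, 6.6 and 6.93 FPKM. All EED-/- values of Robo1 were lower, but the adjusted p was 0.257. Robo3, also chosen after its values were seen, was at 19 FPKM in WT AntNPC replicate 1 and at 2.54, 2.89 and 3.11 FPKM in the other WT libraries, against 2.48 to 3.13 FPKM in EED-/-. Its authors' mean read counts, 1449 and 531, have a ratio of 0.367, and the FPKM of WT replicates 2 to 4 lie within the EED-/- range.

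**Figure D3:**
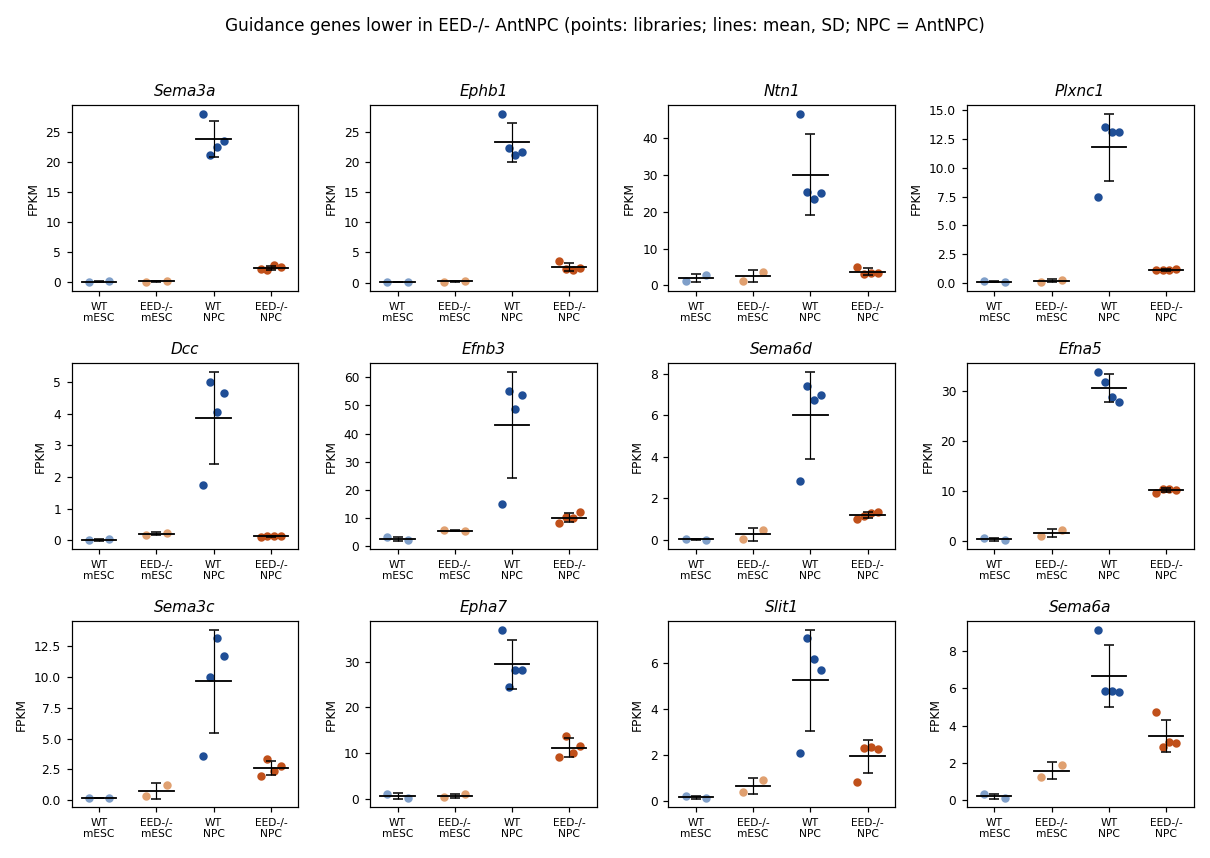
FPKM (vertical axes, linear) of the 12 guidance genes that fell in EED-/- against WT AntNPC, in all 4 groups. Points are libraries in replicate order, lines are means and bars are SD (n = 2 for mESC, n = 4 for AntNPC). The WT AntNPC points stand above all EED-/- AntNPC points except for Slit1, where WT replicate 1 is at 2.07 FPKM. The genes were chosen for their fall in these libraries, so the separation is no further evidence.

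**Figure D4:**
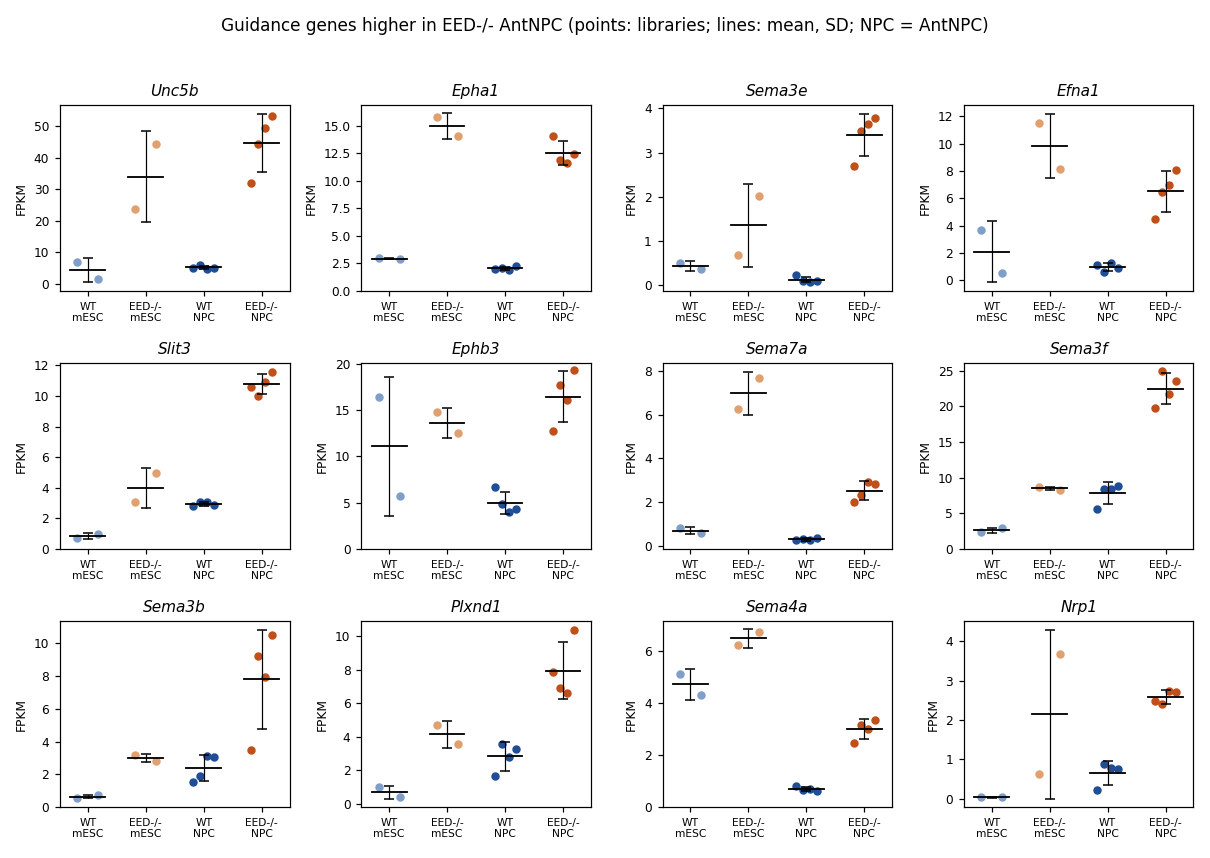
FPKM of the 12 guidance genes with the largest rises in EED-/- against WT AntNPC, drawn in the same way. The EED-/- AntNPC points are all above the WT AntNPC points in these 12 genes, with Unc5b reaching 53.3 FPKM. The genes were chosen for their rise in these libraries, so the separation is no further evidence. Its share among all genes was not computed.

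The 16 rises and 12 falls stand beside other measurements that moved with the genotype. Of the 16 genes that rose, 6 lie on chromosomes 3, 6 and 8 (Efna1, Sema4a, Epha1, Plxnd1, Sema4f and Nrp1), and 10 lie elsewhere. None of the 12 genes that fell is on those chromosomes. Of the tested genes, 7 reached 1 FPKM in 2 libraries only among EED-/- libraries (Epha8, Nrp1, Ntn4, Robo4, Sema3d, Sema3e and Sema7a) and 2 only among WT libraries (Dcc and Unc5c), so such genes could enter the test only through the group in which they were high. In bulk RNA, fewer cells of a type and less RNA per cell cannot be told apart.

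Markers of other cell types also differed between the AntNPC groups. Markers of endoderm (7 of 7 tested), trophoblast (7 of 7), primitive streak and mesoderm (4 of 4), pluripotent stem cells (8 of 8), neural crest (5 of 7) and endothelium (2 of 3) rose in EED-/- AntNPC. None of the tested ones fell. Each list held 8 markers, of which only 4 of mesoderm and 3 of endothelium were tested. The mesoderm list summed to at most 1.56 FPKM in WT AntNPC and 2.58 FPKM in WT mESC. Its tested markers may thus have entered the test only through EED-/- libraries, where they were high. Summed over each list, FPKM went from 11.8 to 13.4 in WT to 65.3 to 71.8 in EED-/- libraries for endoderm, from 14.5 to 17.9 to 155 to 217 for trophoblast, and from 0.754 to 1.56 to 17.6 to 25.8 for mesoderm. For pluripotent cells the sums were 20.7 to 59.1 and 144 to 229, for neural crest 11.3 to 21 and 49.5 to 52.2, and for endothelium 0.819 to 0.922 and 6.15 to 8.23. Neural progenitor markers fell in 3 of 8 cases (Hes5, Sox2 and Sox3), with sums of 206 to 236 and 124 to 140 FPKM. Among neuronal markers 2 of 6 rose (Isl1 and Stmn2) and 3 fell (Map2, Rbfox3 and Snap25), with sums of 50.7 to 59.9 and 68.4 to 97.5 FPKM. Of all these markers only Emcn, of endothelium, was at 0 in every WT AntNPC library, and none was at 0 throughout EED-/- AntNPC. Their part in the guidance gene differences was not tested.

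In mESC the guidance genes differed in 1 direction. Of the 60 tested genes 19 rose in EED-/- against WT mESC and 0 fell, against 20% of all genes called higher and 2.73% lower (22.7% in either direction). At an unadjusted p under 0.05, 25 were higher and 0 lower. The median log2 fold change was 0.61 over the guidance genes and 0.29 over all tested genes, so part of each value below is shared with the whole transcriptome. Quantile normalization moved the latter to -0.05 and the guidance gene counts to 9 higher and 2 lower. The largest rises were those of Unc5b, Efnb1, Sema7a, Efna1 and Epha1. Among the 19, Epha8, Nrp1, Ntn4, Robo4 and Sema7a could enter the test only through EED-/- libraries, where they were high.

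By role, the genes that rose in mESC were 11 ligands and 8 receptors or coreceptors, spread over all 4 systems. Unc5b was at 7.05 and 1.62 FPKM in WT mESC and 23.8 and 44.2 FPKM in EED-/- mESC, a log2 fold change of 2.86 ± 0.45 (adjusted p = 0.00104), or 2.57 above the median of all genes. Sema7a was at 0.801 and 0.586 FPKM against 6.27 and 7.68 FPKM, a log2 fold change of 2.23 ± 0.18 (adjusted p = 1.09e-05). Epha1 was at 3 and 2.88 FPKM against 15.8 and 14.1 FPKM, a log2 fold change of 2.01 ± 0.17 (adjusted p = 1.87e-05). In these genes each EED-/- library exceeded each WT library several times over. Efnb1, a class B ephrin on chromosome X, was at 1.97 and 0.276 FPKM against 6.98 and 12.4 FPKM, with a log2 fold change of 2.41 ± 0.48 (adjusted p = 0.00436). Efna1 was at 3.7 and 0.506 FPKM against 11.5 and 8.15 FPKM, and its log2 fold change was 2.01 ± 0.44 (adjusted p = 0.00736). The WT libraries of both ephrins were several-fold apart, which their larger errors reflect.

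Several rises in mESC were of genes below 1 FPKM in both WT libraries. Slit3 was at 0.703 and 0.994 FPKM in WT and 3.09 and 4.94 FPKM in EED-/- mESC. Robo4, an endothelial Robo receptor, was at 0.115 and 0.662 FPKM against 1.97 and 3.16 FPKM. Nrp1 was at 0.0349 and 0.027 FPKM against 0.628 and 3.67 FPKM. The EED-/- replicates of Nrp1 differed widely, and its call was lost without EED-/- mESC replicate 2 (adjusted p = 0.0908). Plxnd1 was at 0.959 and 0.409 FPKM against 4.72 and 3.58 FPKM. Sema4f was at 0.722 and 0.339 FPKM against 4.07 and 5.09 FPKM. Sema3f was less low in WT, at 2.32 and 2.89 FPKM against 8.67 and 8.28 FPKM, with replicates close together. Sema4c, at 3.68 and 0.476 FPKM against 3.89 and 8.25 FPKM, was called at an adjusted p of 0.0489 and lost its call in 18 alternatives, the replicate block among them (adjusted p = 0.139). Sema3b, Sema6a, Efna5, Epha8, Ephb6, Ephb2 and Ntn4 also rose, by 0.8 to 1.3 on the log2 scale. None of these 7, nor Robo4, Sema3f and Sema4c, was called after quantile normalization (adjusted p of 0.0526 for Robo4 to 0.647 for Ephb6). With the replicate block, the calls of Efna5, Epha8, Ephb2, Ephb6 and Ntn4 were also lost (adjusted p of 0.0594 to 0.108), and that of Sema3b was lost without any single mESC library (0.0557 to 0.103). Without WT mESC replicate 2, Efna5, Epha8, Ephb2 and Ntn4 were not called (0.0592 to 0.124), without EED-/- mESC replicate 1, Epha8 and Ephb6 (0.0666 and 0.07), and without EED-/- mESC replicate 2, Sema6a, Efna5, Epha8, Ephb2 and Ntn4 (0.0768 to 0.171).

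The spread behind these calls was estimated over all 12 libraries. With the 4 mESC libraries alone, limma called 0 of all 13678 genes, and so 0 of the 60 guidance genes. At an unadjusted p under 0.05 there were 1703 genes (12.5%), among them 17 guidance genes, all higher. Without EED-/- mESC replicate 2, 12 rose.

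The genotype comparisons in AntNPC and mESC share no library, and 11 genes rose in both: Unc5b, Epha1, Efna1, Slit3, Sema7a, Sema3f, Sema3b, Plxnd1, Nrp1, Sema4f and Epha8. That is 68.8% of the 16 that rose in AntNPC and 57.9% of the 19 that rose in mESC. Of all genes, 1233 rose in both, 49.2% of those that rose in AntNPC and 45.1% of those that rose in mESC. The 2 comparisons were not independent: they used the same line per genotype and 1 estimate of spread per gene over all 12 libraries. With the 4 mESC libraries alone, none of the 11 was called in mESC. After quantile normalization Epha8, Sema3b and Sema3f were not called in mESC, nor Epha8 and Nrp1 in AntNPC. The overlap included 5 genes of chromosomes 3, 6 and 8. It also included Sema7a, Nrp1 and Epha8, which could enter the test only through EED-/- libraries, where they were high. No guidance gene fell in both. Efna5 and Sema6a fell in AntNPC and rose in mESC, where Efna5 was at 0.492 and 0.0868 FPKM in WT and 0.895 and 2.08 FPKM in EED-/-, and Sema6a at 0.316 and 0.13 FPKM against 1.27 and 1.9 FPKM. Neither rise in mESC was called after quantile normalization (adjusted p of 0.217 and 0.147) or without EED-/- mESC replicate 2 (0.116 and 0.0768), and that of Efna5 was also lost with the replicate block (0.0852) and without WT mESC replicate 2 (0.0592). Efnb1, Robo4, Sema4c, Ntn4, Ephb2 and Ephb6 rose in mESC and were not called in AntNPC.

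**Figure D5:**
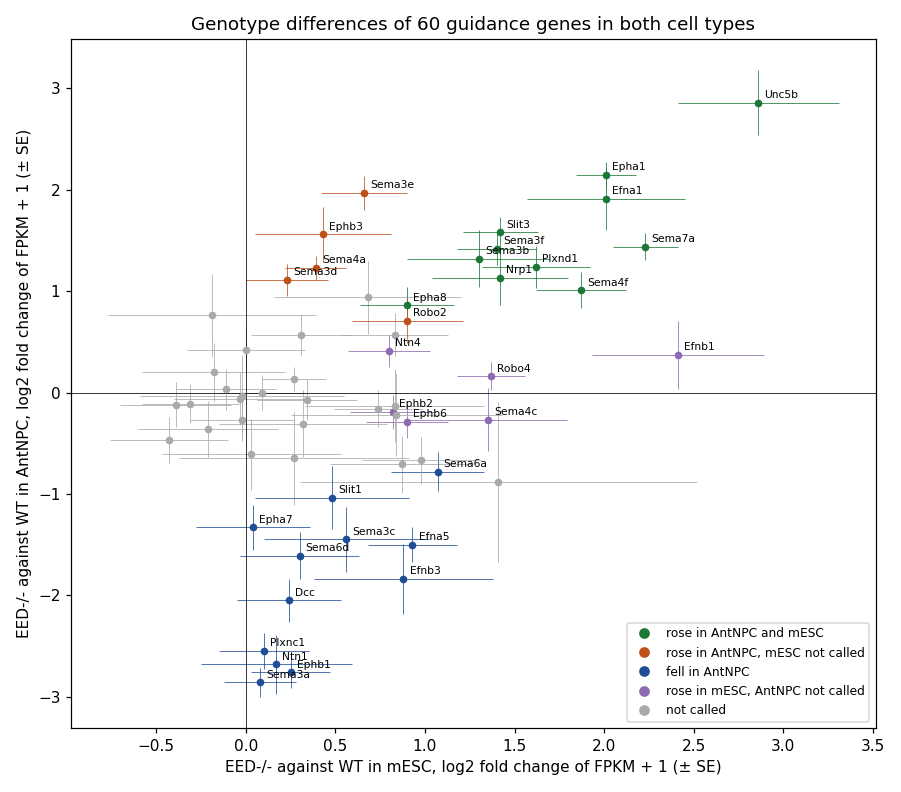
Log2 fold change (± SE) of the 60 tested guidance genes between EED-/- and WT in mESC (horizontal) and in AntNPC (vertical), coloured by call. The 11 genes called higher in both lie at the upper right, with Unc5b at 2.86 on both axes, and the genes that fell in AntNPC lie along the lower part, where Sema3a reaches -2.86 in AntNPC and 0.08 in mESC.

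Differentiation of WT mESC into AntNPC raised most of the guidance genes. In WT, 34 of 60 rose and 4 fell, against 30.1% and 18.1% of all genes (48.2% in either direction), and the median log2 fold change was 1.06 against 0.17 over all genes. Quantile normalization gave a median over all genes of 0.04 and 33 higher and 9 lower guidance genes. Of the genes that rose, Ephb1, Sema3a, Epha7, Plxnc1, Dcc, Sema6d, Sema5a, Slit1, Robo3 and Unc5c were below 1 FPKM in every mESC library. They could enter the test only through AntNPC libraries, where they were higher. Among ephrins and their receptors, Efna5 rose by 4.62 ± 0.21, Ephb1 by 4.55 ± 0.19, Epha7 by 4.33 ± 0.27, Efnb2 by 3.81 ± 0.35 and Efnb3 by 3.48 ± 0.43 on the log2 scale. Sema3a rose by 4.5 ± 0.17, Plxnc1 by 3.51 ± 0.22, Ntn1 by 3.36 ± 0.36, Sema4c by 3.16 ± 0.38 and Sema3c by 3.06 ± 0.4. In WT mESC these genes were low: Ephb1 at 0.0227 and 0.0379 FPKM, Efna5 at 0.492 and 0.0868 FPKM, Epha7 at 0.956 and 0.149 FPKM, Plxnc1 at 0.141 and 0.0637 FPKM, and Sema3a listed at 0 and at 0.179 FPKM. Ntn1 was at 1.24 and 2.75 FPKM, Efnb3 at 3.03 and 2.11 FPKM and Efnb2 at 2.39 and 0.362 FPKM.

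The 4 genes that fell during WT differentiation were Epha2, Sema4a, Sema4b and Ephb3. Epha2, a class A receptor of pluripotent cells and epithelia, was at 11 and 43.9 FPKM in WT mESC and 0.349 to 0.517 FPKM in WT AntNPC. Its log2 fold change was -4.0 ± 0.45 (adjusted p = 3.03e-05). Sema4a was at 5.14 and 4.3 FPKM in WT mESC and Sema4b at 15.7 and 30.8 FPKM, and they fell by 1.75 and 1.19 on the log2 scale. Ephb3 was at 16.4 and 5.77 FPKM in WT mESC, overlapped the AntNPC range, and had an adjusted p of 0.531 without WT mESC replicate 1 and of 0.127 with the replicate block. Leaving out WT mESC replicate 2, EED-/- mESC replicate 1 or EED-/- mESC replicate 2 gave 8, 7 and 7 falls.

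In EED-/- cells the same step raised 22 of 60 genes and lowered 5, against 14.4% and 16.7% of all genes (31% in either direction). Their median log2 fold change was 0.62, with -0.01 over all genes. Epha7 (2.96 ± 0.27), Efnb2 (2.24 ± 0.35), Efna5 (2.2 ± 0.21), Plxnb1 (1.84 ± 0.25), Sema3a (1.56 ± 0.17) and Ephb1 (1.54 ± 0.19) led the rises. Of the 22, Epha7, Sema3a, Ephb1, Plxnc1, Sema5a, Sema3d and Unc5c could enter the test only through AntNPC libraries, where they were higher. Sema3a went from 0.101 and 0.193 FPKM in EED-/- mESC, and Ephb1 from 0.139 and 0.31 FPKM, to the 2 to 4 FPKM given above. Ntn1, at 1.27 and 3.72 FPKM in EED-/- mESC, Dcc, at 0.18 and 0.239 FPKM, and Efnb3, at 5.52 and 5.46 FPKM, were not called in this step, with log2 fold changes of 0.51 ± 0.36, -0.1 ± 0.25 and 0.76 ± 0.43. Epha2 (-3.73 ± 0.45), Robo4 (-1.63 ± 0.17), Sema7a (-1.18 ± 0.15), Sema4b (-0.99 ± 0.23) and Sema4a (-0.91 ± 0.15) fell. Robo4 reached 1 FPKM only in the 2 EED-/- mESC libraries, so it could enter the test only through the group it fell from. The call of Sema4b was lost with the replicate block (adjusted p = 0.056) and without EED-/- mESC replicate 1 (adjusted p = 0.0985). With the replicate block 13 genes rose, and without EED-/- mESC replicate 1, 11 did.

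The genotype difference itself differed between the cell types for 19 guidance genes. By the interaction term of the model, it was lower in AntNPC than in mESC for 17 genes and higher for 2, against 11.3% and 3.98% of all genes (15.3% in either direction). The median over the 60 genes was -0.38 and over all genes -0.20, which quantile normalization moved to 0.01, with 11 guidance genes lower and 3 higher; Efnb1, Epha7, Ephb2, Ephb6, Robo4 and Sema3c were not called on that scale. Ephb1 (-3.01 ± 0.27, adjusted p = 0.00011), Sema3a (-2.94 ± 0.24, adjusted p = 6.59e-05), Ntn1 (-2.86 ± 0.51, adjusted p = 0.00387), Efnb3 (-2.72 ± 0.61, adjusted p = 0.0122) and Plxnc1 (-2.65 ± 0.31, adjusted p = 0.000307) had the largest differences. All 5 fell in AntNPC and were not called in mESC. Efna5, Dcc, Sema3c, Sema6d, Sema6a and Epha7 also fell in AntNPC and had a lower genotype difference there. For Efnb1, Sema6b, Robo4, Ephb6 and Ephb2 the AntNPC difference was not called. For Sema7a it was a smaller rise than in mESC on the log2(FPKM + 1) scale. With a pseudocount of 0.1 the calls of Epha7, Robo4 and Sema7a were lost and that of Slit1 was gained. Robo4 averaged 0.0156 FPKM in WT and 0.14 FPKM in EED-/- AntNPC, levels far below the pseudocount of 1 FPKM used. Sema3e (1.31 ± 0.29, adjusted p = 0.0124) and Sema4a (0.84 ± 0.21, adjusted p = 0.0226) rose more in AntNPC. This term shares its libraries with all other comparisons. With the replicate block 11 genes were lower and 0 higher, and the adjusted p became 0.115 for Efnb1, 0.131 for Epha7, 0.143 for Ephb2, 0.0763 for Ephb6, 0.0734 for Sema6b, 0.0998 for Sema7a, 0.0524 for Sema3e and 0.109 for Sema4a. Efnb1, Epha7, Sema3c, Ephb2 and Sema7a also lost their calls without EED-/- mESC replicate 2 (adjusted p of 0.141, 0.128, 0.125, 0.122 and 0.0795) and without several other single libraries, and Sema4a without any single library of AntNPC replicates 2 to 4 (0.0528 to 0.0588). Leaving out single libraries gave 1 to 6 higher genes: 6 without WT mESC replicate 2, and 1 when any single library of WT or EED-/- AntNPC replicates 2 to 4 was left out.

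The 8 untested genes stayed low in all 12 libraries. They were the Eph receptors Epha3, Epha5 and Epha6, the plexins Plxna4 and Plxnb3, Sema3g, Ntn5 and Unc5d. Their highest value in any library lay between 0.102 and 0.75 FPKM.

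Other genes of guidance signalling were examined as 2 lists. Of 44 tested intracellular effectors, such as cytoskeletal regulators below plexins and Ephs, 4 rose and 5 fell in EED-/- against WT AntNPC, and 35 did neither. Their median log2 fold change was -0.07. Of all tested genes 18.3% rose and 7.75% fell in that comparison, so a smaller share of the effectors was called. The falls included Dpysl4 (-1.62 ± 0.14, adjusted p = 1.18e-05) and Crmp1 (-0.99 ± 0.15, adjusted p = 0.000489), members of the collapsin response mediator family that acts in semaphorin signalling, and the kinase Pak3 (-1.66 ± 0.2, adjusted p = 9.96e-05). The kinase Limk2 (0.86 ± 0.09, adjusted p = 5.99e-05), the actin regulator Vasp (1.06 ± 0.17, adjusted p = 0.000678) and Mical3 (1.14 ± 0.2, adjusted p = 0.00143) rose. Of 29 tested other ligands, receptors and adhesion molecules, 10 rose and 9 fell in AntNPC, against the same 18.3% and 7.75% of all genes. Their median was -0.05. Rgma (-2.46 ± 0.13, adjusted p = 6.48e-07) and Rgmb (-2.04 ± 0.18, adjusted p = 1.4e-05), repulsive guidance molecules, fell with Slitrk5. The chemokine Cxcl12 (2.65 ± 0.21, adjusted p = 6.66e-06), the receptor kinase Met (2.03 ± 0.2, adjusted p = 2.5e-05) and the VEGF receptor Flt1 (1.37 ± 0.16, adjusted p = 8.54e-05) rose. In mESC 15 of the 44 effectors and 10 of the 29 others rose, and 0 of either list fell. Of all tested genes 20% rose and 2.73% fell there. The median log2 fold change in mESC was 0.49 for the effectors, 0.35 for the others and 0.29 for all genes.

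In the authors' deposited table of the AntNPC comparison, all 28 guidance genes called here had the same direction of mean read counts and an authors' p-value under 0.05. Such a p-value was held by 54 of the 68 guidance genes, so it was not particular to the 28. That table was made from the same cells and is not independent evidence. Some named genes overlap others in the annotation: Epha1 with Zyx, Ephb4 with Zan and Ephb1 with a noncoding transcript on the opposite strand, and Plxnc1 with an annotated transcript on the same strand. No stranded counting is stated, so fragments from the shared stretches cannot be assigned to either gene with certainty.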

How the data were processed

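RNA-seq of 12 mouse libraries was analysed from gene-level values. TopHat2, Cufflinks, SAMtools, FastQC and DESeq2 and the GRCm38 build are named in the submitters' processing notes, with no versions. The authors deposited FPKM values per gene and library; depth per library is unknown, so no counting interval is given. For the AntNPC comparison the authors also deposited mean read counts per genotype (a normalized signal) and p-values, per the file headers; the header of the second count column gives no cell type, and it was taken as AntNPC from its partner. Both were only set beside the FPKM results.

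Genes that reached 1 FPKM in 2 or more libraries were fitted in 1 model of 4 group means with limma 3.58.1 (R 4.3.3, trended variance, 8 residual and 2.93 prior degrees of freedom) on log2(FPKM + 1), with Benjamini-Hochberg adjustment over 13678 genes and a threshold of 0.05. The 5 comparisons were the genotype in each cell type, the cell type in each genotype, and their interaction. The script was tested on simulated data. Members were named by rule: the 12 largest called changes per direction and comparison, with a group mean of at least 1 FPKM, and the 2 most abundant genes per family; from each list, up to 3 genes per direction by adjusted p. The genes and lists were chosen with earlier results of these data known.

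AntNPC libraries with the same replicate number deviated together (correlations 0.562, 0.318, 0.422 and 0.332). Libraries of unlike number among replicates 2 to 4 did so as well (0.332 to 0.404), while replicate 1 went against them (-0.481 to -0.43). The values thus set replicate 1 apart and do not pair replicates 2, 3 and 4 by number. The numbers were still used as pairs in the replicate block, without a stated batch. Alternatives covered the pseudocount, filter, normalization, trend, replicate block, library subsets, single libraries left out and chromosomes 3, 6 and 8.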

Additional observations from a re-analysis of the deposited data

Results flagged for a closer look

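In 17 of 80 groups of 4 AntNPC libraries, 1 library lay far from the other 3 by Dixon's test, where chance flags about 1 in 20 groups. WT AntNPC replicate 1 was the outlying library in 11 of them. It was low for Efnb1 (6.86 FPKM), Efnb3 (15.1), Nrp2 (2.73), Plxna1 (33.3), Plxnc1 (7.46), Sema3f (5.56) and Sema6d (2.86). It was high for Ntn1 (46.8 FPKM), Sema3e (0.215), Sema6a (9.14) and Sema6b (5.79). EED-/- AntNPC replicate 1 was outlying in 5 groups: high for Epha2 (3.78 FPKM), Ntn1 (5.02) and Sema6a (4.71), and low for Sema4f (2.0) and Slit1 (0.842). EED-/- AntNPC replicate 4 was high for Plxnc1 (1.22 FPKM). Ntn1 and Sema6a were therefore high in replicate 1 of both genotypes.

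The genotype difference was unlike in AntNPC and mESC for 19 genes, by limma's interaction term on the log2 scale. Beyond Ephb1 (-3.01), Sema3a (-2.94), Ntn1 (-2.86), Efnb3 (-2.72) and Plxnc1 (-2.65), it was lower in AntNPC for Efna5 (-2.43), Dcc (-2.29), Efnb1 (-2.04), Sema3c (-2.01), Sema6d (-1.9), Sema6a (-1.85), Sema6b (-1.65), Epha7 (-1.37), Robo4 (-1.21), Ephb6 (-1.19), Ephb2 (-1.01) and Sema7a (-0.79). It was higher in AntNPC for Sema3e (1.31) and Sema4a (0.84). The calls of Epha7, Robo4 and Sema7a were lost with a pseudocount of 0.1.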

How the results depend on the processing

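Over all 131 calls of guidance genes in the 5 comparisons, 78 held under every alternative in which the gene was tested. The 78 include calls of Sema3d in AntNPC and in EED-/- differentiation and of Robo4 in EED-/- differentiation. Those genes were not tested under the filter of a mean of at least 1 FPKM. Of the alternative values of the 131, 2398 kept direction and side of the threshold, 288 kept direction but lost the call, and none changed sign. Many alternatives, such as dropping the trend or a library of a group outside the comparison, leave the difference of group means as it was. In those the sign could not change. Counts of called guidance genes moved as follows. In EED-/- against WT AntNPC, 10 of the 16 rises lay outside chromosomes 3, 6 and 8. With the 8 AntNPC libraries alone 19 genes fell, with or without the replicate block, and 22 and 23 rose. Of all genes, 55.6% with the block and 52.1% without it were then called, against 26.1% in the fit of all 12 libraries. In mESC, quantile normalization gave 9 rises and 2 falls, the 4 mESC libraries alone gave 0 rises, and leaving out single libraries gave 12 to 24 rises and 0 to 4 falls. In WT differentiation, falls numbered 8 with a pseudocount of 0.1, 9 after quantile normalization and 3 to 8 without single libraries. In EED-/- differentiation, rises numbered 13 with the replicate block and 11 to 28 without single libraries, and 8 genes fell with no filter on low values. The interaction was higher for 1 gene outside chromosomes 3, 6 and 8, for 0 with the replicate block and for 1 to 6 without single libraries, and lower for 11 after quantile normalization and for 11 with the replicate block. The causes were not tested. The replicate block moved no other count by over 1.5 times. It ended no call between genotypes in AntNPC, 6 of 19 in mESC (Efna5, Epha8, Ephb2, Ephb6, Ntn4 and Sema4c), 8 of 19 in the interaction, given with their p above, 5 of 38 in WT differentiation (Efna4, Ephb3, Ntn4, Plxna1 and Sema3b) and 10 of 27 in EED-/- differentiation (Ephb2, Ephb4, Plxna2, Plxnc1, Plxnd1, Robo2, Sema3b, Sema4b, Sema4c and Unc5c). The mESC numbers correlated at -0.67 and the crossed numbers at 0.67, and the crossed replicate block, chosen after seeing the data, gave 16 mESC rises and 1 higher interaction. FPKM without totals limit what can be said of low genes.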
